A study of Mus musculus with 6 samples.

Results

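The ATP-binding cassette (ABC) genes were examined in blood stem cells isolated by sorting from the bone marrow of mice. Members were all genes whose single annotated symbol is Abc, a subfamily letter from a to g and a number, which gave 48 of 20352 genes with a symbol of their own on the array. Subfamily A had 16 members, B had 9, C had 10, D had 3, E had 1, F had 3 and G had 6. The rule reads only the symbols, but it was set with earlier results of these data known. Expression was measured on 6 arrays, 3 labelled as controls and 3 from mice with floxed beta-catenin alleles that carried the Vav-Cre transgene, called floxed arrays below. The labels give all cells as sorted for c-Kit, absence of lineage markers, Sca-1 and absence of CD34; they do not give the age, the strain or the sex, nor whether controls carried the transgene or floxed alleles. Vav-Cre acts throughout the blood-forming system, so the deletion is not specific to stem cells. The labels do not say if a replicate is its own mouse or a pool of mice; the tests therefore rest on the spread among these 6 samples, part of which may be technical.

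ABC proteins bind and hydrolyse ATP at a conserved cassette. Most of them use that energy to move a lipid, drug, peptide or metal complex across a membrane, and those of subfamilies E and F have no membrane part and act on ribosomes and translation. In bone marrow the family is known for the side population, the stem cells that stay dark because they pump out a DNA-binding dye. Abcg2 is the main pump behind that phenotype, and Abcb1a and Abcb1b encode the rodent forms of P-glycoprotein, which expels dyes and drugs. Abca1 and Abcg1 export cholesterol and are known to restrain the growth of stem and progenitor cells.

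Promoter sequences are shown for Abcg2 and for the P-glycoprotein genes with their neighbour Abcb4, because Abcg2 and P-glycoprotein are the pumps linked to the side population and because the neighbouring genes differ in base composition. Each line holds the 250 bases before an annotated start, 5′ to 3′ on the plus strand, as listed by RefSeq for the build GRCm38.p6. Capitals mark the GC box GGGCGG on either strand, the motif to which factors of the Sp family bind.
Abcb1a, chr5:8566841-8567090: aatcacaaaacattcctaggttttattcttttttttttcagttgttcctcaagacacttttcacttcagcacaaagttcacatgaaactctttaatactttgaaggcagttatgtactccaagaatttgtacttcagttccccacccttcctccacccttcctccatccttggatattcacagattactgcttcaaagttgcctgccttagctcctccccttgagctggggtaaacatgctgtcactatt
Abcb1b, chr5:8797897-8798146: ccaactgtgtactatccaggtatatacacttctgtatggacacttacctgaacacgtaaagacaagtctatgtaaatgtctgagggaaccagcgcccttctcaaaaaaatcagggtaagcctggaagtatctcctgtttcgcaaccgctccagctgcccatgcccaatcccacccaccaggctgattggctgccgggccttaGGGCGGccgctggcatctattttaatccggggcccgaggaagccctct
Abcb4, chr5:8893471-8893720: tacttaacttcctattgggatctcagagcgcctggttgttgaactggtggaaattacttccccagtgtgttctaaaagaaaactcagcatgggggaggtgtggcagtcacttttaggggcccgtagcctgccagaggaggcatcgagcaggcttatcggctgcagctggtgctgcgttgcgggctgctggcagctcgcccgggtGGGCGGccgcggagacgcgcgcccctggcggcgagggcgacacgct
Abcg2, start 3 of 3 listed, chr6:58640296-58640545: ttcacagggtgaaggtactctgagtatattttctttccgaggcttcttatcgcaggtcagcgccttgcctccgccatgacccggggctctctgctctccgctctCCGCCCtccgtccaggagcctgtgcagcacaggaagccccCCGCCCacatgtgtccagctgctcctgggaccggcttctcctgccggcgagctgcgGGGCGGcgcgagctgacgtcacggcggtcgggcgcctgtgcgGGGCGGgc
The Abcb1a window held 0 GC boxes and 0 CG dinucleotides, with a G and C content of 40.4%. Its neighbours Abcb1b and Abcb4 each held 1 GC box, with 9 and 18 CG dinucleotides. The Abcg2 window held 4 GC boxes and 23 CG dinucleotides, and the other listed starts of Abcg2 held 0 and 2 GC boxes.

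A gene's value on an array was the median log2 signal over all of its probe sets. Members had 13 to 64 probe sets each, 1432 in all, against a median of 8 for a gene of the array. Because no detection calls were used, the 982 olfactory receptor genes, which sensory neurons of the nose express, served as a floor. The 95th percentile of their mean values over the 6 arrays was 6.31 log2, and their median was 4.77. The 982 olfactory genes had 1206 probe sets in all, so their values rest on far fewer probe sets a gene than those of members. A member was called above the floor where its mean over the 6 arrays was higher than 6.31. Values of different genes come from different probes, so their order is not an order of transcript abundance, and only the position against the floor is read.

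The labelled genotype and cell type were checked on the same arrays. The Ctnnb1 probe sets of positions 2 to 6 in number differed by −6.90 to −2.51 log2 between the groups, while the gene value, the median of 17 probe sets, differed by −0.97 (limma adjusted p = 0.125). Stem cell markers were above the floor for 12 of 13 genes, among them Kit at 11.78, Ly6a at 11.28 and Hlf at 11.57, and Hoxb5 was not. Cd34 RNA had a mean of 12.66 although the label gives the cells as lacking surface CD34. All 4 listed markers of CD34 positive and multipotent progenitors were above the floor, with Flt3 at 11.83, Cd27 at 11.07 and Cd48 at 10.11. Markers of other cells were above the floor as well, 11 of 12 for granulocytes and macrophages, 10 of 10 for erythroid cells and megakaryocytes, 6 of 6 for B cells and 5 of 6 for T and NK cells. The mean granulocyte marker value lay between 8.42 and 9.39 on control arrays and 8.54 and 9.13 on floxed arrays, and that of B cells between 7.21 and 8.87 and between 7.94 and 8.53. Gene values correlated at 0.969 to 0.978 among control arrays and 0.989 to 0.991 among floxed arrays. Control replicate 3 stood apart in its dim genes, with an olfactory floor of its own at 6.85, against 6.15 to 6.41 on the other 5 arrays. In RNA of a whole sorted sample, fewer cells of a type and less RNA per cell cannot be told apart. A transporter above the floor is thus detected in the sample, and the part of other cells in its signal was not tested.

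Signal above the floor was found for 32 of the 48 members, or 66.7%, against 69.4% of the 19322 other genes, so the family as a whole stood close to the background of the array. Of the 32, 28 were above the array's own floor on all 6 arrays, and 14 members were above it on none. Every member of subfamilies D, E and F was above the floor. In subfamily B it was 7 of 9, in C 7 of 10, in G 4 of 6 and in A 7 of 16. Just inside the floor lay Abca17 at 6.43, and just outside lay Abcc9 at 6.22. With the 99th percentile of the olfactory genes in place of the 95th, 26 members remained above. At the level of single probe sets, 864 of the 1432, or 60.3%, exceeded the 95th percentile of olfactory probe sets, 6.43 log2, against 70.9% of the probe sets of other genes. For the 16 members not above the floor it was 155 of 560, or 27.7%. A member not above the floor is therefore not shown to be silent.

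**Figure D1:**
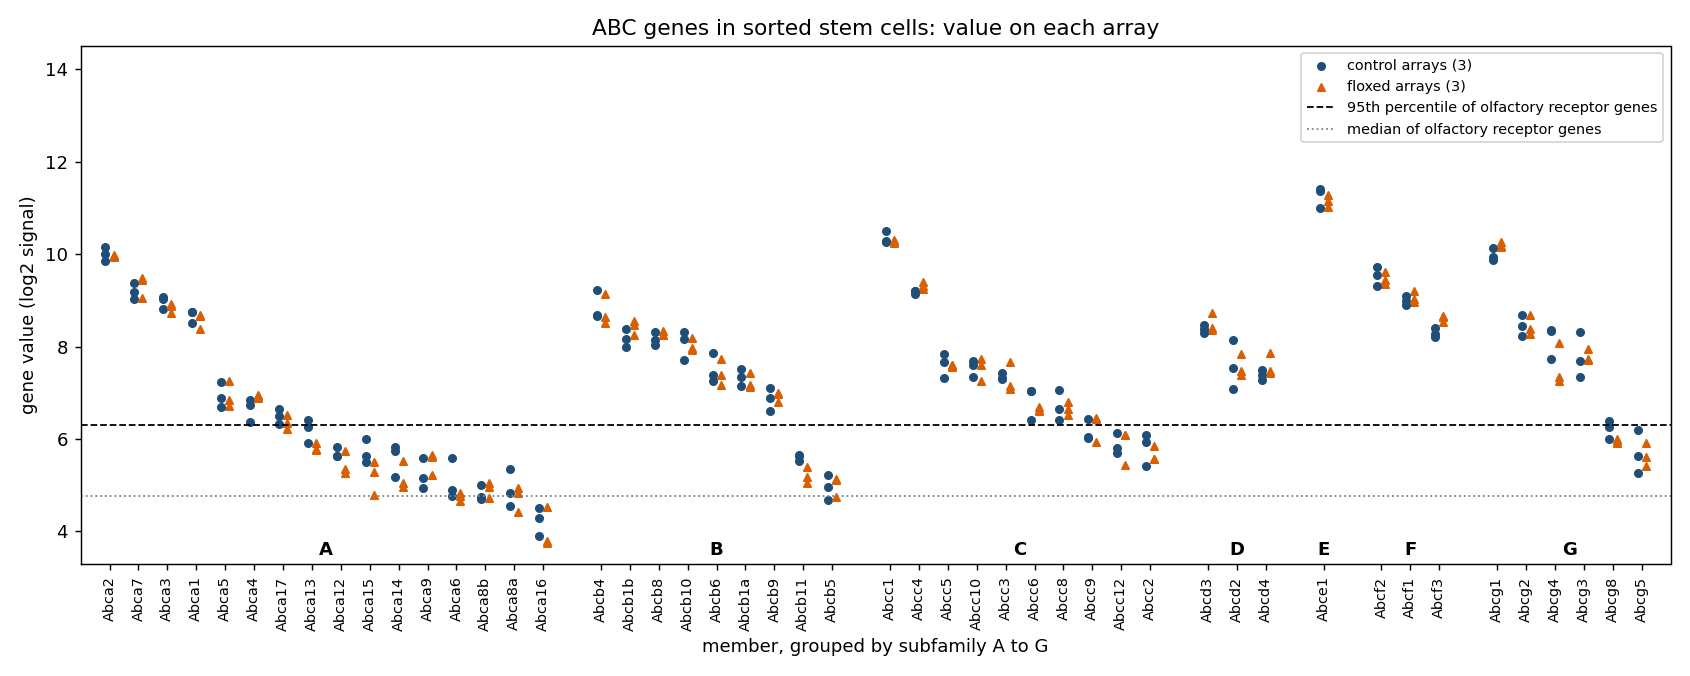
Value of each of the 48 ABC genes on each array, in log2 signal, grouped by subfamily; circles are the 3 control and triangles the 3 floxed arrays, and the dashed and dotted lines are the 95th percentile (6.31) and the median (4.77) of olfactory receptor genes. All members of subfamilies D, E and F lie above the dashed line, and 9 of 16 members of subfamily A lie below it.

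All 4 genes on the list of drug pumps had signal above the floor on every array. Abcg2 had 8.69, 8.23 and 8.44 log2 in the controls against 8.68, 8.37 and 8.27 in floxed arrays. The groups overlapped fully, and control replicate 1 and floxed replicate 1 were the highest of each. Of its 17 probe sets, 15 exceeded the probe-set floor, and their means over the arrays reached 10.31. Both probe sets below the floor stood among the last 3 in probe-set number. Abcb1b had 8.38, 8.17 and 7.99 in the controls against 8.55, 8.47 and 8.25 in floxed arrays, with 20 of 22 probe sets above the floor. Its groups overlapped only through control replicate 1 and floxed replicate 3. Abcb1a had 7.51, 7.35 and 7.15 in the controls against 7.11, 7.17 and 7.43 in floxed arrays, and 17 of its 27 probe sets exceeded the floor. Those values overlapped between the groups. Abcb1a and Abcb1b are close paralogues, and whether probes cross-hybridise between them was not tested. Abcc1, which exports glutathione conjugates and leukotrienes, had 10.27, 10.49 and 10.28 in the controls against 10.31, 10.28 and 10.23 in floxed arrays. All 33 of its probe sets exceeded the floor, the lowest with a mean of 8.68.

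**Figure D2:**
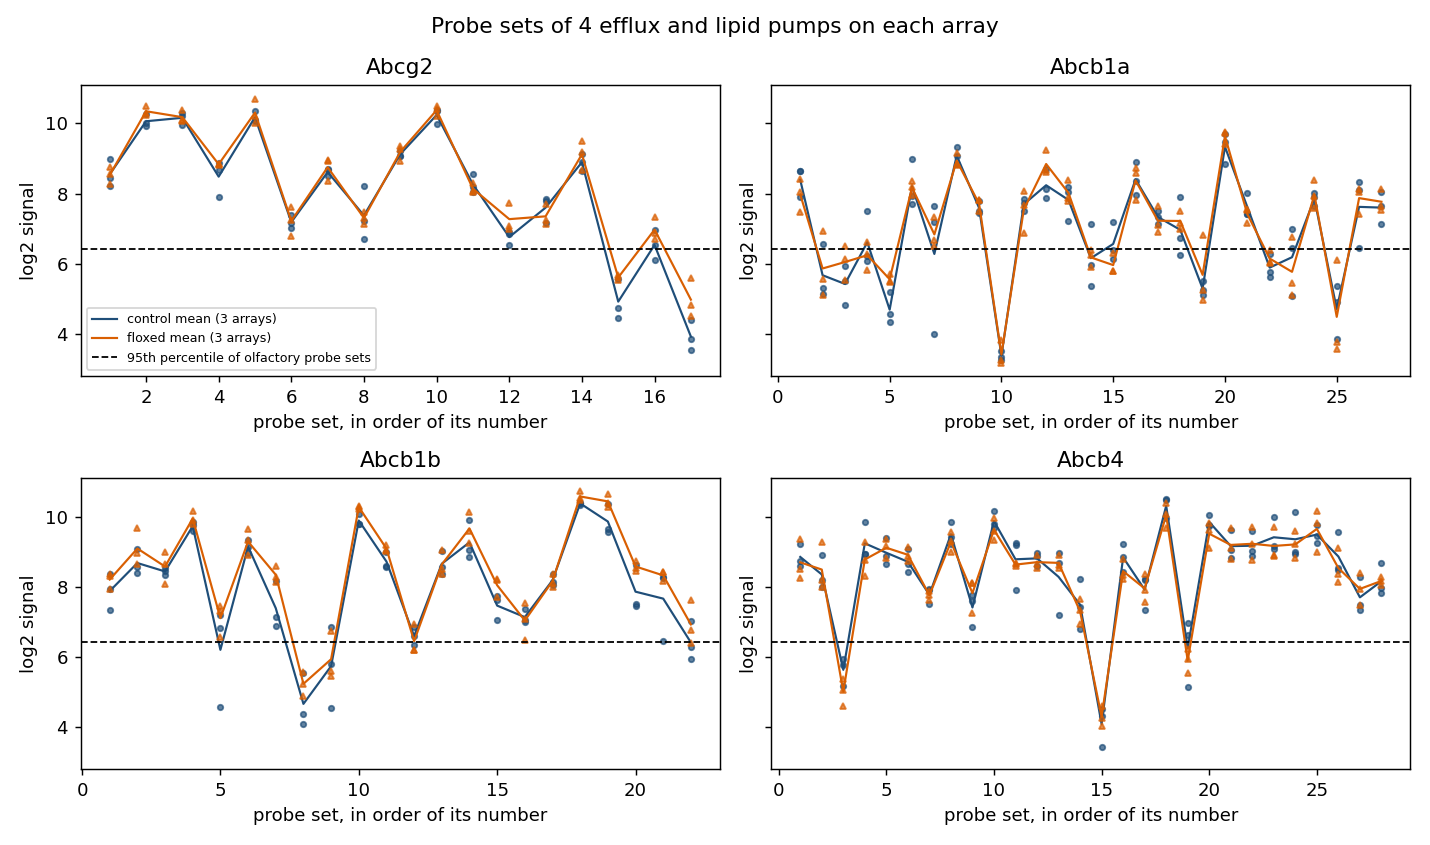
Log2 signal of every probe set of Abcg2, Abcb1a, Abcb1b and Abcb4 in order of probe-set number; points are single arrays, lines are group means of 3 arrays, and the dashed line is the 95th percentile of olfactory probe sets (6.43). Above the line lie 15 of 17 probe sets of Abcg2, 17 of 27 of Abcb1a, 20 of 22 of Abcb1b and 25 of 28 of Abcb4, and for Abcb1b 18 of 22 floxed means lie above the control means.

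None of these 4 pumps passed the test of floxed against control arrays. Abcg2 had a log2 difference, floxed minus control, of −0.01 (SE 0.17, 95% confidence interval −0.39 to 0.37, limma adjusted p = 0.994). For Abcb1b it was 0.25 (SE 0.16, interval −0.11 to 0.61, limma adjusted p = 0.915), for Abcb1a −0.10 (interval −0.49 to 0.29) and for Abcc1 −0.07 (interval −0.33 to 0.19). The sign of 3 of them depended on how probe sets were joined. When probe sets were averaged instead, Abcg2 had 0.21 (SE 0.13, limma adjusted p = 0.901), Abcb1a 0.08, Abcc1 0.05 and Abcb1b 0.36. Of the single probe sets, 13 of 17 for Abcg2 and 18 of 22 for Abcb1b were higher in floxed arrays. All probe sets of a gene come from the same 6 RNA samples, so such counts are not independent.

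Among cholesterol and phospholipid exporters, all 5 listed genes were above the floor. Abca1 had 8.74, 8.75 and 8.51 in the controls against 8.66, 8.38 and 8.69 in floxed arrays (log2 difference −0.09, interval −0.43 to 0.25). Abcg1, which passes cholesterol to high-density lipoprotein, had 9.93, 10.13 and 9.88 in the controls against 10.17, 10.15 and 10.25 in floxed arrays. Each floxed value of Abcg1 was thus above each control value, by 0.21 in the means (SE 0.12, limma adjusted p = 0.915). That difference was 0.003 with the mean of probe sets, where 7 of 17 probe sets were higher and 10 lower. Abcg4, a close relative of Abcg1, had 7.72, 8.33 and 8.36 in the controls against 7.33, 7.25 and 8.08 in floxed arrays. Floxed replicates 1 and 2 lay below every control and floxed replicate 3 lay within them. Its log2 difference of −0.58 (SE 0.25, interval −1.13 to −0.04, limma adjusted p = 0.915) was the lowest of the family. Leaving out single arrays moved it between −0.84 and −0.43, and over all 15 alternatives it ran from −0.84 to −0.36. Abca2, a lipid transporter of lysosomes, had 9.86, 10.14 and 9.995 in the controls against 9.99, 9.96 and 9.93 in floxed arrays, a log2 difference of −0.04 (interval −0.31 to 0.24). Abca7, known from the clearance of dying cells by phagocytes, had 9.03, 9.37 and 9.17 against 9.44, 9.47 and 9.04, a log2 difference of 0.13 (interval −0.23 to 0.48). Its floxed replicates 1 and 2 lay above the controls and floxed replicate 3 within them.

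All 4 lysosomal and all 3 mitochondrial transporters described here were above the floor. Abca3, which loads phospholipid into lung surfactant bodies, had 8.82, 9.06 and 9.02 in the controls against 8.72, 8.88 and 8.91 in floxed arrays (log2 difference −0.13, SE 0.14). Abcd4, which takes part in the exit of cobalamin from lysosomes, had 7.496, 7.38 and 7.28 against 7.47, 7.86 and 7.43 (0.20, SE 0.18). The groups overlapped in both, and floxed replicate 2 was the highest for Abcd4. Abca5 had a mean of 6.94 over the arrays and a log2 difference of 0.0042, and the peptide transporter gene Abcb9 had 6.89 and 0.06; each was above the array's own floor on 5 of 6 arrays. Of the mitochondrial transporters, Abcb8 had 8.30, 8.15 and 8.03 in the controls against 8.24, 8.24 and 8.34 in floxed arrays (log2 difference 0.12, interval −0.21 to 0.44). Abcb10, required for haem synthesis in erythroid cells, had 8.17, 8.30 and 7.72 in the controls against 7.96, 7.92 and 8.18 in floxed arrays (−0.04, interval −0.45 to 0.36). Abcb6, linked to porphyrin transport, had 7.38, 7.85 and 7.26 against 7.18, 7.38 and 7.72 (−0.07, SE 0.21). The groups overlapped for all 3. Of the peroxisomal fatty acid transporters, Abcd3 had 8.46, 8.38 and 8.30 in the controls against 8.39, 8.36 and 8.73 in floxed arrays (log2 difference 0.11, SE 0.16). Abcd2 had 8.15, 7.53 and 7.07 against 7.38, 7.47 and 7.84 (−0.02, SE 0.25). Abcd2 ranged from 7.07 to 8.15 within the controls alone, a control SD of 0.54, the widest of any member.

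The ATPases that act on ribosomes and translation were all above the floor on every array. Abce1, which splits ribosomes after termination so that they can be used again, had 11.001, 11.41 and 11.36 in the controls against 11.27, 11.02 and 11.14 in floxed arrays (log2 difference −0.11, interval −0.41 to 0.18). Abcf1, a factor of translation initiation, had 8.99, 9.09 and 8.90 in the controls against 9.21, 8.96 and 9.03 in floxed arrays (0.07, interval −0.23 to 0.38). Abcf2 had 9.71, 9.54 and 9.30 against 9.44, 9.34 and 9.62 (−0.05, SE 0.15), again with overlap. Abcf3 had 8.39, 8.28 and 8.22 in the controls against 8.67, 8.64 and 8.53 in floxed arrays, so that every floxed array lay above every control. Its log2 difference of 0.32 (SE 0.14, interval 0.0027 to 0.63, limma adjusted p = 0.915) was the highest of the family and did not pass. An exact two-sided permutation test for Abcf3 gave p = 0.1, below which 3 arrays a group cannot go. Of its 21 probe sets, all exceeded the floor, 20 were higher in floxed arrays and 7 of those had groups that did not overlap. Over all probe sets of the array, groups did not overlap for 9.26%, in either direction. All probe sets of Abcf3 come from the same RNA samples, so these counts are not independent and add no separate test for Abcf3. Over the 15 alternatives the difference ran from 0.19, with the filter at the 75th percentile of probe sets, to 0.37. A share of at least 85% of probe sets on the same side of 0 was reached by 2 of the 48 members, Abcf3 and Abcg4 (15 of 17 lower), or 4.17%, against 10.6% of the 8397 genes with at least 10 probe sets. That threshold was chosen after the values were seen.

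**Figure D3:**
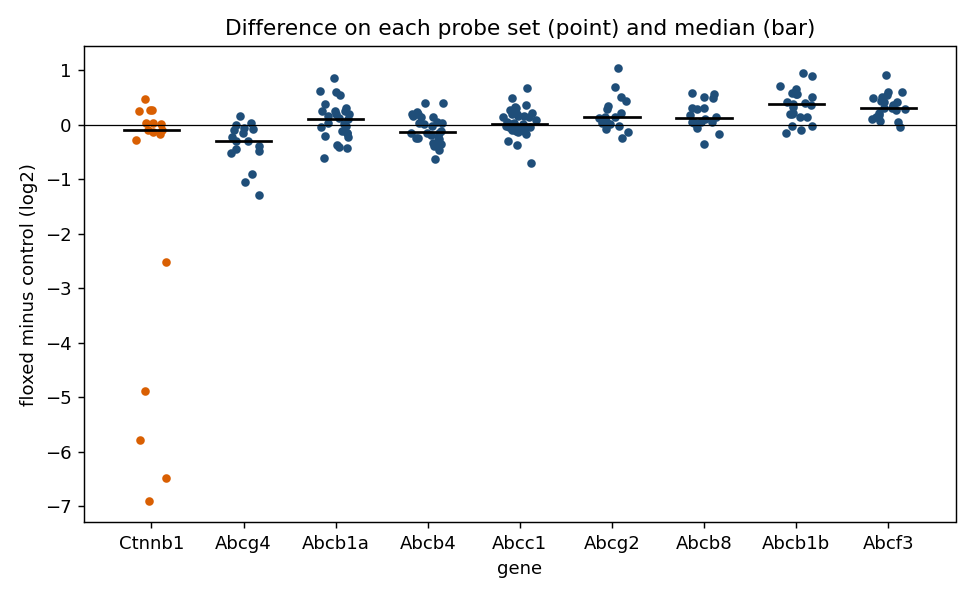
Floxed minus control log2 difference of each probe set (points, 3 against 3 arrays) with bars at the median of each gene for Ctnnb1 and 8 ABC genes. The 5 Ctnnb1 probe sets between −6.90 and −2.51 stand apart, while the probe sets of the ABC genes lie between −1.28 and 1.05, with 20 of 21 above 0 for Abcf3 and 15 of 17 below 0 for Abcg4.

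Exporters of conjugates and nucleotides other than Abcc1 gave small differences. Abcc4, which exports cyclic nucleotides and is known from platelets, had 9.14, 9.20 and 9.19 in the controls against 9.24, 9.39 and 9.32 in floxed arrays. The groups did not overlap, with a log2 difference of 0.14 (SE 0.13, interval −0.14 to 0.42, limma adjusted p = 0.928), which was −0.01 with the filter on dim probe sets. Abcc5, also an exporter of cyclic nucleotides, had 7.85, 7.66 and 7.32 in the controls against 7.56, 7.61 and 7.60 in floxed arrays (−0.02, SE 0.18), and its floxed values lay inside the range of the controls. Abcc10 had a mean of 7.53 (−0.02) and Abcc3, known from liver and gut, had 7.32 (−0.05). Abcc2, which moves conjugates into bile, had 5.73 and was not above the floor (−0.15). The sulphonylurea receptor genes Abcc8 and Abcc9, which encode subunits of potassium channels, had 6.68 (−0.04) and 6.22 (0.11), and Abcc12 had 5.88 (−0.01).

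Of the 6 genes listed as liver, gut and kidney transporters 2 were above the floor, and of the 2 listed for photoreceptors and skin 1 was. The bile salt pump gene Abcb11 had 5.52, 5.63 and 5.66 in the controls against 5.19, 5.40 and 5.05 in floxed arrays, which lay below all controls (log2 difference −0.39, interval −0.78 to −0.01, limma adjusted p = 0.915). Abcg5 and Abcg8, whose products together expel plant sterols, had means of 5.67 and 6.09 (log2 differences −0.05 and −0.26), and the skin lipid transporter gene Abca12 had 5.57 (−0.25). Abcb5 had 4.98 (0.05). Abcc6, known from liver and kidney, had 6.73 (−0.19) and was above the floor, as was, outside that list, Abcg3, a rodent relative of Abcg2, at 7.78 (0.02). Abcb4 was the other gene of that list above the floor. It encodes the pump that releases phosphatidylcholine into bile, and it had 8.69, 9.22 and 8.66 in the controls against 8.63, 8.52 and 9.14 in floxed arrays, with 25 of 28 probe sets above the floor (log2 difference −0.10, interval −0.54 to 0.35). The retinal transporter gene Abca4 had 6.85, 6.74 and 6.38 in the controls against 6.95, 6.90 and 6.93 in floxed arrays (0.27, interval −0.14 to 0.67), with 30 of 50 probe sets above the floor. The floxed values of Abca4 lay above all controls, the nearest of which was 6.85.

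Some members lie next to each other in the genome. Abcb1a, Abcb1b and Abcb4 follow each other with 0 protein-coding genes between them, and all were above it. Abca14, Abca15 and Abca16 are likewise adjacent and none was above it, with means of 5.38, 5.45 and 4.13; the log2 difference of Abca16 was −0.21. The run of Abca5, Abca6, Abca9, Abca8a and Abca8b was split. Abca5 was above the floor with 24 of 40 probe sets, and the other members had means of 4.92 for Abca6, 5.36 for Abca9, 4.82 for Abca8a and 4.87 for Abca8b, with 7 or 8 probe sets above. Their log2 differences were −0.33, 0.27, −0.19 and 0.09. Abcg5 and Abcg8 are adjacent as well, and neither was above the floor. Abca17 (log2 difference −0.13) and Abca3 are also adjacent, and both were above the floor.

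The members above and below the floor also differed in the bases before their starts. RefSeq promoter windows were found for 38 of the 48 members, with 45 starts in all. Of the 10 members without a window, all but Abca6 were above the floor. Among 29 starts of members above the floor, the median count of CG dinucleotides in 250 bases was 17, and 18 starts (62.1%) held a GC box. Among 16 starts of members not above the floor, the median was 4.5 and 2 starts (12.5%) held a GC box. Starts of other measured genes went the same way, with medians of 15 and 4 and shares of 55.6% and 27.0%. The contrast in CG dinucleotides was thus close to that of the other genes. That in GC boxes was wider among the members, on few starts, and this was not tested. The split was not complete: Abcb1a held 0 CG dinucleotides and was above the floor. The core motif CTTTGAT of TCF and LEF, the factors that recruit beta-catenin to DNA, was searched on both strands and found in 0 of the 45 windows, against 3.21% of all 32851 windows in the table. The variant CTTTGAA was found in 3 of the 45, those of Abcb1a, Abcb5 and Abcc5, or 6.67%, against 4.46% of all windows. The Abcb1a window printed above held it at 2 places. A match of letters is not a binding site, and its absence here says nothing of sites elsewhere.

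**Figure D4:**
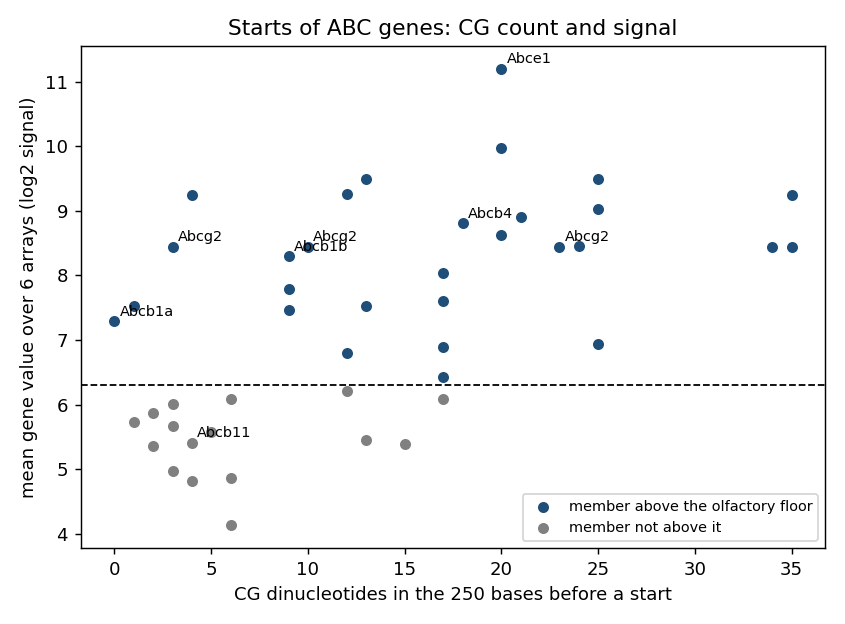
CG dinucleotides in the 250 bases before each of the 45 RefSeq starts of ABC genes (horizontal) against the mean gene value over the 6 arrays in log2 signal (vertical); a gene with several starts has a point for each, and the dashed line is the olfactory floor at 6.31. Starts of members above the floor have a median of 17 CG dinucleotides and those of the other members 4.5, while Abcb1a has 0 and lies above the line.

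No member passed the comparison of floxed with control arrays over the whole table. In limma, 0 of 48 members passed at an adjusted p of 0.05 (smallest adjusted p = 0.915), beside 2 of 20352 genes, or 0.00983%. These genes were Mup10 and Sva, neither above the floor in its mean over the 6 arrays. Sva had a control mean of 4.84 and a floxed mean of 7.57, and was above the array's own floor on the 3 floxed arrays. At an unadjusted p under 0.05 there were 4 members, or 8.33%, against 5.22% of all genes. These were Abcf3 on the higher side and Abcg4, Abca15 and Abcb11 on the lower side. On single probe sets, 0 of 1432 passed in limma (smallest adjusted p = 0.987), beside 6 of 212097, or 0.00283%, 5 of them of Ctnnb1. An unadjusted p under 0.05 was reached by 101 of the 1432, or 7.05%, against 4.45% of all probe sets, and groups did not overlap for 127, or 8.87%, against 9.26%. Groups did not overlap for 7 members, or 14.6%, against 10.5% of all genes. Abcf3, Abcg1, Abcc4 and Abca4 were higher in all 3 floxed arrays (8.33% of members, against 5.08% of all genes), and Abca13, Abcb11 and Abcg8 were lower in all 3 (6.25%, against 5.47%), Abcg8 with a lowest control of 6.004 and a highest floxed array of 6.002. By single probe set, 41 of 64 were lower for Abca13 and 16 of 28 for Abcb11. For Abcg8 only 5 of 14 were lower and 9 were higher. The interval of the difference lay within 1 log2 of 0 for 46 members, all but Abcg4 and Abca15, and within 0.5 for 24.

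The median log2 difference of the 48 members was −0.04, with 17 higher and 31 lower, against a median of −0.00099 and 49.8% higher over all genes. Their 1432 single probe sets were nearly balanced, with 48.8% higher in floxed arrays and a median of −0.01. By subfamily the median over gene values was −0.13 for A, −0.04 for B, −0.03 for C, 0.11 for D, 0.07 for F and −0.03 for G. Of the 16 members not above the floor, 12 were lower in floxed arrays, with a median of −0.20, and of the 32 above it 19 were lower, with a median of −0.02. Control replicate 3 moved with this split. Members above the floor lay at a median of −0.13 from their mean on that array, and members not above it lay at 0.22, the highest of the 6 arrays. Without control replicate 3 the medians were −0.06 and −0.14, an alternative added after the data were seen. The part of that array in the result was not tested further. In floxed arrays 11 of 12 granulocyte and macrophage markers were lower (median log2 difference −0.29), as were 7 of 10 for erythroid cells and megakaryocytes (−0.14) and 6 of 7 for stroma and endothelium (−0.10), with 0 passing in limma. The B cell and the T and NK cell lists each had 3 higher and 3 lower, and 9 of 13 stem cell markers were higher (0.04). Of the 4 markers of CD34 positive and multipotent progenitors 2 were higher and 2 lower (−0.01). Among them Cd27 had −0.54, with every floxed array below every control, and Cd48 had 0.37. Their part in the members' differences was not tested.

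**Figure D5:**
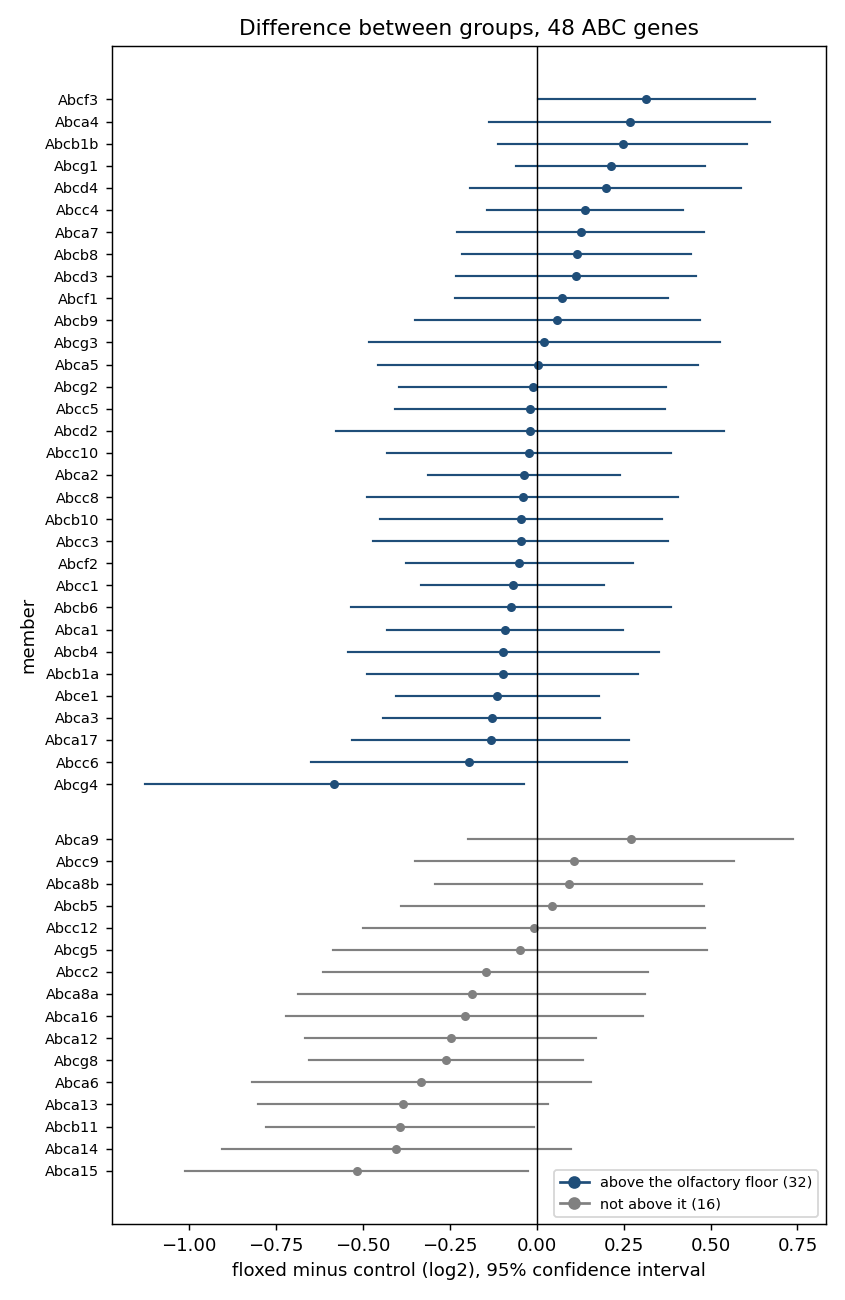
Floxed minus control difference in log2 for the 48 ABC genes with the 95% confidence interval from limma; the upper block holds the 32 members above the olfactory floor and the lower block the 16 others, each sorted by the difference. The interval includes 0 for 44 members, and the medians of the blocks are −0.02 and −0.20.

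Values of the dim members with the smallest p follow by array. Abca15 had 5.51, 5.63 and 6.002 in the controls against 5.29, 5.51 and 4.79 in floxed arrays (log2 difference −0.52, SE 0.22). Abca14 had 5.74, 5.18 and 5.84 against 5.05, 4.97 and 5.53 (−0.40, SE 0.23). The groups overlapped in both. Abca13, which encodes the longest protein of the family, had 6.41, 6.27 and 5.92 in the controls against 5.76, 5.78 and 5.91 in floxed arrays (−0.38, SE 0.19). Every floxed array of Abca13 lay below every control, the nearest at 5.91 and 5.92, and 25 of its 64 probe sets exceeded the floor. Abca6 had 5.60 on control replicate 2 and 4.66 to 4.89 on the other arrays (−0.33, SE 0.22). The 5 member probe sets of smallest p belonged to Abca6, Abca14, Abcg4, Abca13 and Abcb5. Those of Abca6 (log2 difference 1.54) and Abca14 (1.47) were higher in floxed arrays, although the gene values were lower. The probe set of Abcb5 was lower (−1.37), while its gene value differed by 0.05. Those of Abcg4 (−1.05) and Abca13 (−1.53) were lower, as were their gene values. Of the 5, only the probe set of Abcg4 was above the probe-set floor. It had 9.02, 9.06 and 9.09 in the controls against 7.68, 7.89 and 8.45 in floxed arrays.

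The antigen peptide transporter genes Tap1 and Tap2, which are ABC genes by sequence but not by symbol, had control means of 10.26 and 9.92 and floxed means of 10.38 and 10.08, with log2 differences of 0.11 and 0.17. Cftr, a chloride channel of the C subfamily, had 4.86 and was not above the floor. Of 29 partners and regulators, 27 were above the floor, 0 passed in limma and 1 had an unadjusted p under 0.05, with 15 higher, 14 lower and a median log2 difference of 0.0021. That 1 gene was Slc25a37, the mitochondrial iron importer that binds ABCB10, with 9.28, 9.33 and 9.44 in the controls against 9.94, 10.01 and 9.31 in floxed arrays (0.41, SE 0.18). Floxed replicate 3 lay among the controls. The sensor of oxidative stress Keap1 had 7.94, 8.17 and 8.11 against 8.30, 8.34 and 8.38 (0.26, SE 0.15) without overlap, and the glutathione reductase gene Gsr had 0.27 (SE 0.16). Arnt, the partner of the aryl hydrocarbon receptor, had −0.23 and Srebf2, a factor that drives sterol synthesis, had −0.15. The sterol sensors Nr1h2 and Nr1h3, which induce Abca1 and Abcg1, had means of 9.84 and 6.74 with differences of −0.17 and −0.0031, and the drug sensors Nr1i2 and Nr1i3, known inducers of P-glycoprotein, had 6.05 and 5.79 and were not above the floor.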

How the data were processed

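The authors deposited a table of log2 signal for 241576 probe sets on 6 arrays, with values from 2.44 to 14.53 and array medians from 7.56 to 7.65. The log base follows from their range. MAS5 is named in the submitters' processing notes, without a role; how background was corrected and signals were summarised and normalized is not given in the sources used here. In the platform annotation 212097 probe sets had 1 symbol, and the 4475 with several symbols, 2 of them of Abce1, and the 25004 with none were left out. Symbols were updated through a RefSeq table (17621 current, 2742 updated, 53 unmatched).

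A gene's value was the median over all its probe sets, with no filter. The model, over genes and over probe sets, was limma's (version 3.58.1, R 4.3.3; lmFit, then eBayes with its trend option). Tests were two-sided, with p-values adjusted after Benjamini and Hochberg over the whole table. The steps were tested on data simulated with the same noise in both groups, whereas the median SD of a gene was 0.23 in controls and 0.15 in floxed arrays. Power at differences of the size seen in members was not tested. The number of arrays limits the precision. Members, lists and rules were chosen with earlier results of these data known. Named in full were Abcg2, Abcb1a, Abcb1b, Abcc1, Abca1, Abcg1, Abcb10, Abce1 and Abcf1, the 3 members of highest mean in each subfamily, the 10 members and the 5 member probe sets of smallest p, and 6 genes of smallest p from the lists outside the symbol rule; other members are given by mean and difference, and other genes were chosen after their values were seen. The alternatives tried were leaving out each array, a block for the replicate number, array weights, robust eBayes, eBayes with no trend, averaged probe sets, 2 filters on dim probe sets (at the table's median and 75th percentile), equal array medians and quantile normalization.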

Additional observations from a re-analysis of the deposited data

How the results depend on the processing

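No member passed in limma under any of the 15 alternatives, and no single probe set of a member under the 14 that apply to probe sets. Members above the floor numbered 31 to 33 under the alternatives that kept the dim probe sets, 26 at the 99th percentile of the olfactory genes and 47 at their median; both filters left fewer than 20 olfactory genes and gave no value. The count of genes passing over the whole table was 0 with either filter and 0 to 9 when 1 array was left out (9 without control replicate 1; 0 without control replicate 3, floxed replicate 1 or floxed replicate 2; 1 without floxed replicate 3). Members whose groups did not overlap numbered 3 of 45 with the filter at the median (8.44% of all genes) and 8 to 19 of 48 when 1 array was left out, where the smaller group itself eases separation (16.1% to 33.3% of all genes). They were 19 without control replicate 1 (33.3% of all genes) and 13 without floxed replicate 3 (20.1%). The median log2 difference of the members ran from −0.09 to 0.02. Whether the replicate numbers pair the arrays cannot be decided from 3 arrays a group. Deviations of same-numbered arrays correlated at 0.18, −0.0074 and −0.16, and those of differently numbered arrays at −0.20 to 0.21. With the replicate block 2 genes and 0 members passed.

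Signs turned for named members with main differences from −0.10 (Abcb1a) to 0.14 (Abcc4), none of them called. Abce1 at −0.11 and Abcb8 at 0.12 kept their signs. The cause was not tested. With the filter at the median, Abcb10 had 0.061, Abcb1a 0.038, Abcc4 −0.013, Abcc5 0.060 and Abcg2 0.17. With that at the 75th percentile, Abca7 had −0.051, Abcb1a 0.30, Abcc1 0.032, Abcd2 0.029, Abcf2 0.016 and Abcg2 0.10. With the mean of probe sets, Abca1 had 0.011, Abcb1a 0.084, Abcc1 0.046, Abcc5 0.10 and Abcg2 0.21. With array weights, Abcd2 had 0.0079 and Abcg2 0.11. When 1 array was left out, the range was −0.17 to 0.0085 for Abca1, −0.11 to 0.036 for Abca2, −0.22 to 0.076 for Abcb10, −0.28 to 0.084 for Abcb4, −0.11 to 0.0044 for Abcc1, −0.16 to 0.10 for Abcc5, −0.27 to 0.26 for Abcd2, −0.0061 to 0.18 for Abcd3, −6.1e-05 to 0.12 for Abcf1, −0.16 to 0.048 for Abcf2 and −0.13 to 0.11 for Abcg2. Without scanner files, signal over background is known only through the olfactory genes.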
